A study of Mus musculus with 10 samples.

Results

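Arc and Npas4 are immediate-early genes that neurons switch on within minutes of synaptic activity. They were followed here as 2 genes of the 21887 RefSeq protein-coding genes on chromosomes 1 to 19, X and Y. Every chromatin immunoprecipitation sequencing (ChIP-seq) region that overlapped either gene or its 50 kb flanks was taken, which gave 170 of the 651012 regions in the 8 deposited peak lists, 59 at Arc and 111 at Npas4. The cells were cortical neurons, cultured from C57BL/6J mice and used at day 6 in vitro after a night in medium with 3% serum. They were then depolarized for 45 min with 50 mM KCl or left untreated, and no transgene or other allele is named in the labels. Each of the 4 antibodies (Gtf3c1, Rpc155, H3K4me1 and H3K27ac) gave 1 list with KCl and 1 list without. The study's design speaks of 3 biological replicates, and whether a list pools them is not given in the labels. Because a condition is represented by a single list, no difference below has a replicate check and none carries a p-value. The lists describe whole cultures, in which a mark on more of the cells and a stronger mark in each cell cannot be told apart.

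KCl depolarizes the membrane and lets calcium in through voltage-gated channels, and calcium-activated kinases then act on factors such as CREB, SRF and MEF2 that already sit at immediate-early genes. Arc (Arg3.1) encodes a postsynaptic protein that promotes the removal of AMPA receptors from synapses. Npas4 encodes a transcription factor of the bHLH-PAS family that is induced selectively by calcium entry in neurons and works as a dimer with ARNT2 or ARNT. Both genes have upstream enhancers, of which the synaptic activity-responsive element (SARE) of Arc, about 7 kb upstream of the start, binds CREB, SRF and MEF2. H3K4me1 marks enhancers whether or not they are active, and H3K27ac marks active enhancers and promoters. Gtf3c1 is the largest subunit of TFIIIC, the DNA-binding initiation factor of RNA polymerase III, and Rpc155 is the catalytic subunit of that polymerase, which makes tRNAs and other short RNAs.

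The regions within a list can be read as fold enrichments, the peak caller's ratio of fragments at the region's summit to its local background. The fold enrichment and the p of a region together fix how many fragments its summit held, and that whole number was recovered for all regions of all 8 lists within 0.0005 of the deposited −log10 p. The genomic background was 4.57 fragments in the KCl list and 4.58 in the untreated list of Gtf3c1. For H3K27ac it was 6.4 and 6.88, for H3K4me1 4.66 and 4.63, and for Rpc155 4.51 and 4.89. At that background the weakest listed summits held 12 to 16 fragments, so a place without a region may still hold signal below this level. Intervals on fragments are exact Poisson 95% intervals and cover counting error only; fragments without molecular identifiers are not independent molecules. Among cell type markers, H3K27ac was listed within 1 kb of all 6 neuronal, all 4 glutamatergic and all 4 GABAergic genes in both conditions. It was listed at 3 of 4 astrocyte genes with KCl and at 4 untreated, at 1 of 4 oligodendrocyte genes and at 0 of 4 microglial genes in both conditions. No share over all genes at 1 kb is given here. Within the wider 5 kb, 13485 of the 21887 protein-coding genes had H3K27ac in both lists. The marker counts therefore do not measure the make-up of the cultures.

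Npas4 is the gene whose start could be shown in sequence, and a break between its acetylated regions fell on that sequence. RefSeq places Npas4 on the minus strand of chromosome 19, from 4984353 to 5003439 on GRCm38/mm10. This span of 19087 bp takes in predicted transcripts that begin up to 13468 bp upstream of the start used by the RefSeq promoter table (build GRCm38.p6), which is 4989971. From there to the 3′ end the gene is 5619 bp long. The promoter, chr19:4989922-4990221 on the minus strand, runs from 250 bases before the start to 50 bases after it, and reads 5′ to 3′ as below, with cAMP response element sequences and a TATA box in capitals.
Npas4 promoter: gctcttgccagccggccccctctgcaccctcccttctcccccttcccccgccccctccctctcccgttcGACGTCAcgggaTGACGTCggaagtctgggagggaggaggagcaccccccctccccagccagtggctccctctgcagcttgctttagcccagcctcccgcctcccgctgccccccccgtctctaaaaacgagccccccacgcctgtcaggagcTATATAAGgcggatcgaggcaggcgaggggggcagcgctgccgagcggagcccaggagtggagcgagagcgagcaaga

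The 7 bases TGACGTC, all but the last base of the palindromic CREB site, occurred there on each strand, beginning 181 and 169 bases before the start, and the matches do not overlap. A match on either strand was present in 3.21% of the 32851 promoters in the table and in 5 of the 14 immediate-early genes listed further on that have an entry. The shares here are per promoter, and the table holds 27025 genes. An immediate-early gene was counted if any of its promoters matched, so its counts are not on the same unit. The complete site TGACGTCA, held by 1.79% of promoters, was absent from the Npas4 window. The TATA box spelling TATATAAG began 28 bases before the start and was present in 1.01% of promoters on either strand; this spelling and the 7-base site were chosen after the sequence had been seen. The usual spelling TATAAA (13.6% of promoters) had no match in Npas4. The shorter CREB core TGACG, which both 7-base matches contain, was in 20.8% of promoters and in 13 of the 14 immediate-early genes. The core bound by NPAS4 itself, TCGTG (16.0% of promoters), the core of the polymerase III B box, GTTCGANNC (0.843%), and the CArG box of SRF (1.63%) had no match on either strand. Arc had no entry in the promoter table.

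The promoter and upstream enhancer of Arc lay in a single acetylated domain with KCl, and in separate acetylated places in untreated neurons. RefSeq places Arc on chromosome 15 from 74669081 to 74672570. The tables used here give no strand for Arc; it was taken from general knowledge as minus, which puts the start at 74672570. With KCl, H3K27ac ran without a break from 74670946 to 74681218, a region of 10273 bp with a fold enrichment of 9.32 and its summit 6.99 kb upstream of the start. In untreated neurons the same stretch held a promoter region of 1271 bp (74671977 to 74673247, fold enrichment 3.43) and an upstream region of 1419 bp (74678471 to 74679889, fold enrichment 3.81, summit 7.08 kb upstream). Regions of at least 10 kb made up 0.322% of the H3K27ac regions with KCl and 0.195% of those without, and 8.11% of KCl regions overlapped 2 or more untreated ones.

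The upstream summit carried 68 fragments with KCl (52.8 to 86.2) and 29 in untreated neurons (19.4 to 41.6), and these intervals do not overlap. Both summits fell between 6 and 8 kb upstream of the start, the interval in which the SARE was looked for, and inside the long noncoding RNA gene Gm32994 (74673013 to 74704511), which begins 0.44 kb above the Arc start. Measured as the strongest fold enrichment within 5 kb of the gene, H3K27ac was higher with KCl by 1.44 on the log2 scale, since the long region reaches into that window. The median over the 13485 protein-coding genes with a region in both lists was 0.45, and 7.48% of them were at least 2-fold higher, so acetylation values were higher with KCl at most genes. A ratio as high as that of Arc was found at 0.831% of these genes. The summit of the long region lies outside the 5 kb window. With summits required inside it, the comparison at Arc was between a KCl region 4.58 kb below the start (fold enrichment 3.51) and the untreated promoter region (3.43), a log2 ratio of 0.035. H3K27ac covered 46.6% of Arc with KCl and 17.0% in untreated neurons, and 7.26% of protein-coding genes were covered more by at least 10 percentage points.

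H3K4me1 was already present at these places before the stimulus. At the upstream place its fold enrichment was 15.2 with KCl and 15.1 in untreated neurons, from 85 and 84 summit fragments. This was the highest value of the mark within 50 kb of Arc in both lists. Around the start the regions were 3242 bp long with KCl and 3376 bp in untreated neurons, with fold enrichments of 11.1 and 9.60. Inside the gene a weaker region covered 710 bp with KCl and 1585 bp without. H3K4me1 thereby covered 53.5% of the length of Arc with KCl and 69.3% in untreated neurons, a difference of −15.8 percentage points; 1.21% of protein-coding genes were lower by at least 10 points.

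Gtf3c1 was listed at the Arc upstream enhancer with KCl and not in untreated neurons. The KCl region spanned 74678693 to 74679568 with its summit 6.70 kb upstream of the start, a fold enrichment of 5.92, and 32 summit fragments (21.9 to 45.2). Untreated neurons had no listed region there, where the weakest listed summits at genomic background held 13 fragments. Regions found in the KCl list alone were common, 48.9% of all KCl regions of Gtf3c1. Of those 28423 regions, 0.788% had at least 32 summit fragments, 19.2% overlapped H3K4me1 and H3K27ac in both conditions as this one did, and 0.320% did both. At the Arc start the regions had fold enrichments of 3.95 with KCl and 2.87 without, from 21 fragments (13.0 to 32.1) and 15 fragments (8.40 to 24.7), and these intervals overlap. Gtf3c1 covered 11.4% of the gene with KCl and 6.42% in untreated neurons, a change that 7.43% of genes reached; with 1 kb flanks added the difference turned to −0.0729 points.

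**Figure D1:**
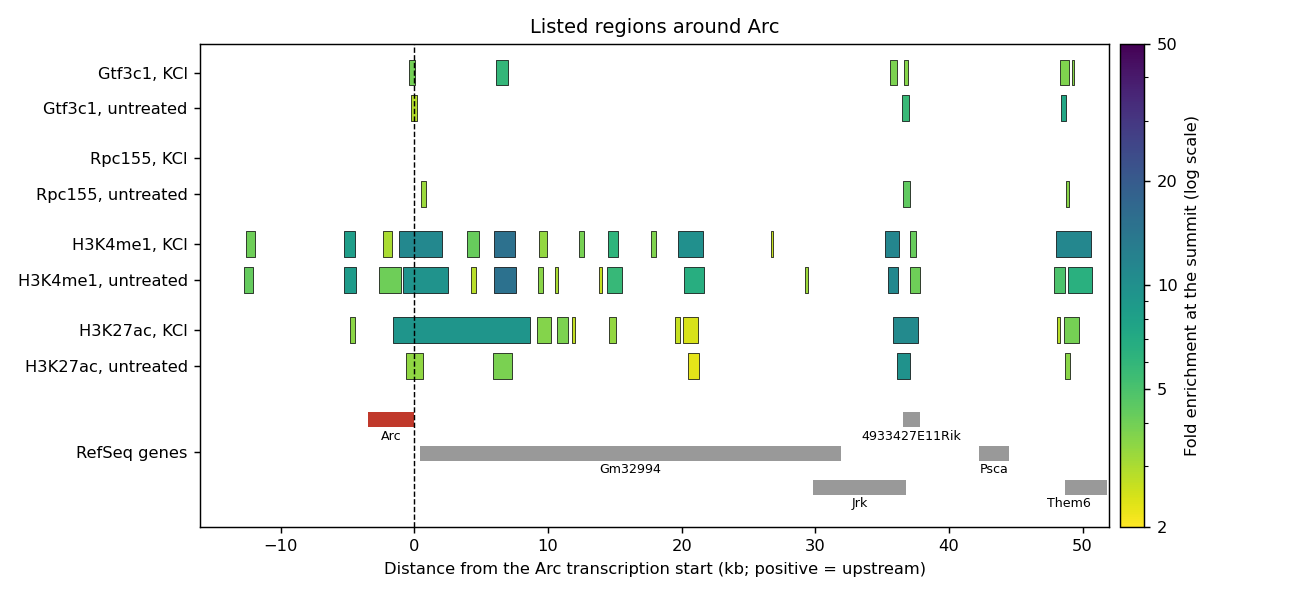
Regions of each list around Arc, drawn against the distance from the transcription start in kb (positive values upstream); colour gives the fold enrichment at the summit on a log scale, and grey bars are neighbouring RefSeq genes. H3K27ac forms a single region of 10273 bp over the promoter and the upstream enhancer with KCl, Gtf3c1 has a region 6.70 kb upstream with KCl alone, and Rpc155 has no region with KCl.

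RNA polymerase III was listed around Arc in untreated neurons alone, at low fragment counts. The 3 untreated regions of Rpc155 lay 0.62 kb upstream of the start (74673089 to 74673454, fold enrichment 3.23), at the boundary of Jrk and 4933427E11Rik (74709125 to 74709694, 4.41) and at Them6 (74721298 to 74721582, 3.57). Their summits held 18, 25 and 20 fragments, against a lowest value of 15 among summits at genomic background in the KCl list, which had 0 regions within 50 kb. Over the whole untreated list of Rpc155, 82.4% of regions overlapped no KCl region, so the absence of all 3 from the KCl list is close to that background. The KCl list held 4251 regions and the untreated list 12531; with equal numbers of regions kept, the untreated count at Arc was 1 and the KCl count 0. None of the 3 Rpc155 regions coincided with the enhancer place at which Gtf3c1 was listed with KCl.

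The remaining Gtf3c1 regions within 50 kb of Arc lay at its upstream neighbours Jrk, a nuclear protein gene, and Them6. Where both conditions had a region, the fold enrichment was lower with KCl, though the intervals of the fragment counts overlap. At the end of Jrk that abuts the noncoding gene 4933427E11Rik it was 3.59 with KCl and 5.73 in untreated neurons, from 19 and 31 fragments. Beside Them6 it was 3.71 and 7.34, from 29 and 40 fragments, with a local background of 7.09 with KCl and 4.58 without. Further regions 35.8 kb and 49.3 kb upstream of Arc were in the KCl list alone, with 20 and 19 fragments. H3K27ac at the boundary of Jrk and 4933427E11Rik was 10.8 with KCl and 9.78 in untreated neurons, from 79 and 76 fragments. The intervals of these counts, 62.5 to 98.5 with KCl and 59.9 to 95.1 without, overlap almost entirely.

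In all, 6 Gtf3c1 regions lay within 50 kb of Arc with KCl and 3 without, numbers that 35.3% and 61.2% of protein-coding genes reached. For H3K27ac the counts were 11 and 5, reached by 10.2% and 38.1% of genes. Of the 11 with KCl, 7 overlapped no untreated region, against 31.9% of KCl regions of H3K27ac overall. These 7 included 5 that lay between 9 and 20 kb upstream, inside Gm32994, with 19 to 27 fragments, and 1 that lay 4.58 kb below the start, beyond the 3′ end of the gene. For H3K4me1 the counts were 15 with KCl and 16 without.

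Npas4 was already covered by both histone marks in untreated neurons. H3K4me1 formed a single region over the whole gene and its upstream part, 20156 bp with KCl (4982760 to 5002915) and 20055 bp in untreated neurons (4982713 to 5002767). Its fold enrichment was 25.6 with KCl and 21.5 without, from 144 fragments (121 to 170) and 120 fragments (99.5 to 143), and these intervals overlap. Only 0.210% of protein-coding genes had a value as high with KCl, and 0.690% in untreated neurons. H3K27ac peaked close to the same place, 4.58 kb upstream of the start with KCl and 4.52 kb upstream without, at fold enrichments of 16.1 and 14.1. That is a log2 ratio of 0.19, below the median of 0.45 over all genes.

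In the gene itself, H3K27ac was listed over more of the length with KCl. With KCl a region of 5453 bp ran from 4984483 to 4989935, from the 3′ end up to the start, with its summit 0.43 kb inside the gene, a fold enrichment of 12.8 and 94 fragments (76.0 to 115). In untreated neurons the strongest of the 3 regions that it overlapped ran from 4987507 to 4989934, with a fold enrichment of 7.61 and 66 fragments (51.0 to 84.0). The other two had fold enrichments of 3.41 and 3.56. The intervals at the start overlap at their ends. The ratio of fragments there, 1.42, was near those at the neighbours Mrpl11 (1.61, from 82 with KCl and 51 without) and Slc29a2 (1.43, from 83 and 58). Over the RefSeq span H3K27ac covered 97.8% of Npas4 with KCl and 90.1% in untreated neurons. This difference of 7.71 points was reached by 9.52% of protein-coding genes. Counted from the start to the 3′ end, a cut chosen after seeing the data, H3K27ac covered 97.0% and 85.5%. Upstream, the KCl list had a single region of 13564 bp where the untreated list had regions of 7081 and 5318 bp.

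The break between these acetylated regions fell on the promoter printed above. It spanned 4989936 to 4990217 with KCl (282 bp) and 4989935 to 4990203 in untreated neurons (269 bp), and lay inside the 300-base window in both. All 3 capitalised sites fell in the break in both conditions. H3K4me1 and Gtf3c1 were listed across it in both conditions. Of the 300 printed bases, 282 lay in the break with KCl and 269 in untreated neurons. How many other gene starts have such a break was not counted.

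**Figure D2:**
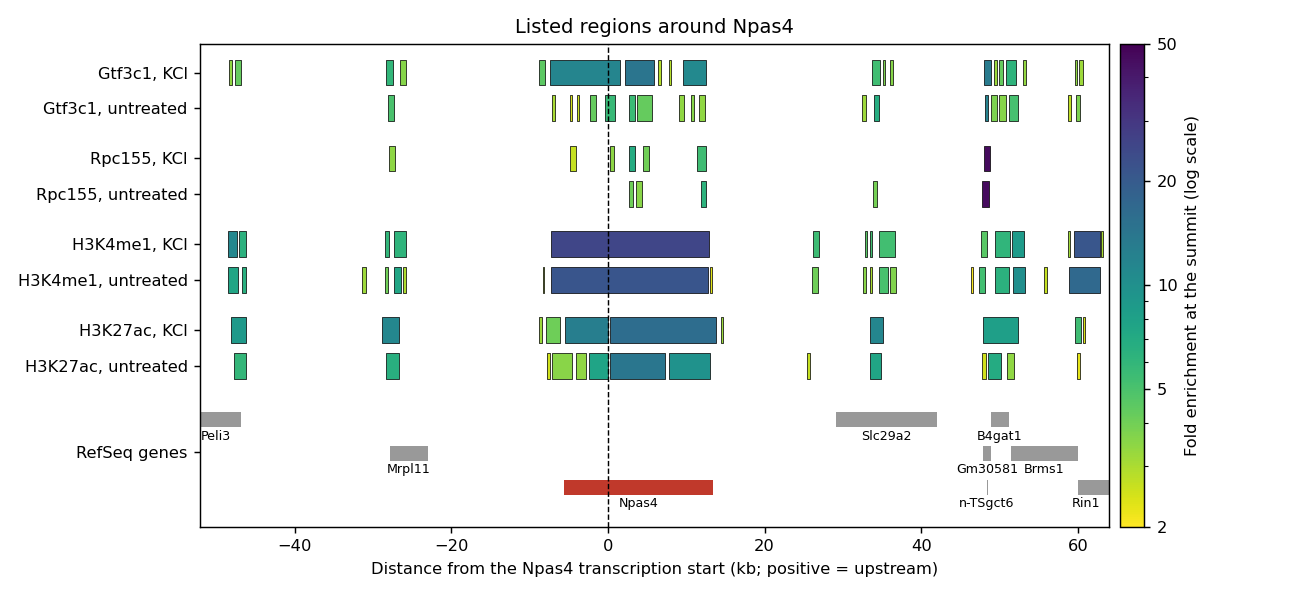
Regions of each list around Npas4, drawn against the distance from the transcription start in kb (positive values upstream); colour gives the fold enrichment at the summit on a log scale, and the red bar is the RefSeq span of Npas4 with its predicted upstream transcripts. Gtf3c1 has a region of 8898 bp over the gene with KCl, where the untreated regions are shorter and separate, and the H3K4me1 region spans the gene in both conditions; the darkest Rpc155 regions lie at the tRNA gene n-TSgct6.

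Of the 4 antibodies, Gtf3c1 had the largest ratio of strongest fold enrichments at Npas4. With KCl a single region of 8898 bp, from 4982611 to 4991508, ran from beyond the 3′ end to above the start, at a fold enrichment of 11.6. In untreated neurons that stretch held 5 separate regions with fold enrichments between 2.45 and 5.73. Of all KCl regions of Gtf3c1, 3.40% overlapped 2 or more untreated ones and 0.0189% were at least 8 kb wide, as were 0.00150% of untreated regions. At the start the summit held 68 fragments with KCl (52.8 to 86.2) and 31 in untreated neurons (21.1 to 44.0). The KCl summit lay 0.64 kb inside the gene and the untreated one 0.05 kb inside it. Gtf3c1 covered 100% of the gene from the start to the 3′ end with KCl and 31.1% in untreated neurons. Over the RefSeq span the values were 75.6% and 37.6%, a difference of 38.0 points; 4.08% of protein-coding genes were higher by at least 10 points.

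Gtf3c1 was also higher with KCl about 3 and 12 kb upstream of Npas4, where both lists had regions. About 3 kb upstream (4992145 to 4995890 with KCl) the fold enrichment was 14.4 with KCl and 5.55 without, from 79 fragments (62.5 to 98.5) and 30 fragments (20.2 to 42.8). About 12 kb upstream (4999544 to 5002487) it was 10.9 with KCl, and 3.40 to 3.58 at the 3 untreated regions it overlapped, from 60 fragments with KCl (45.8 to 77.2) and 18 or 19 without. At both places the interval with KCl lay above the untreated one. Farther upstream, at Slc29a2, the fold enrichment was 5.38 with KCl and 6.80 without, from 29 and 37 fragments. The strongest Gtf3c1 value within 5 kb of the gene was higher with KCl by 1.32 on the log2 scale, against a median of 0.06 over 11853 genes. Of these genes 2.96% were at least 2-fold higher, 2.73% at least 2-fold lower and 1.00% as high as Npas4. The ratio sets unlike places against each other, the KCl region about 3 kb upstream and the untreated region at the start (5.73). Within 1 kb of the start the log2 ratio was 1.01. Further regions, 6.68 and 7.82 kb upstream, were in the KCl list alone at 15 fragments each. Within 50 kb there were 20 Gtf3c1 regions with KCl and 19 without, since the wide KCl regions stood against several narrow ones; the length covered was 25.5 kb with KCl and 13.5 kb in untreated neurons.

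RNA polymerase III was listed at the same upstream places of Npas4 in both conditions. About 3 kb upstream Rpc155 had a fold enrichment of 6.90 with KCl and 4.08 in untreated neurons, from 37 fragments (26.1 to 51.0) and 25 fragments (16.2 to 36.9). The summits lay 3.01 kb upstream in both lists. About 12 kb upstream the values were 5.45 with KCl and 6.28 without, from 29 fragments (19.4 to 41.6) and 36 fragments (25.2 to 49.8). The intervals overlap at both places. With KCl, Rpc155 regions also appeared 0.50 kb upstream of the start (4990246 to 4990704, fold enrichment 3.46, 20 fragments), 4.62 kb upstream (4.00, 21 fragments) and near the 3′ end of the gene (4985088 to 4985879, 2.64, 18 fragments). The −log10 q of the last was 1.49, close to the lowest of that list, 1.46. A region 3.62 kb upstream was in the untreated list alone, with 20 fragments.

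Npas4 thus had 7 Rpc155 regions within 50 kb with KCl and 5 untreated, in a series in which 5.59% of protein-coding genes had more with KCl and 45.7% had fewer. Of its 7 KCl regions, 4 overlapped no untreated region, against 48.1% of all KCl regions. Rpc155 covered 21.3% of the RefSeq span with KCl and 8.69% without, and 0.210% of genes were higher by at least 10 points. At a q of at most 1e-05 there were 3 regions in each condition, and the difference in length covered was 5.40 points in place of 12.6. Each of the 7 Rpc155 regions with KCl and the 5 untreated ones overlapped a Gtf3c1 region of both conditions, as did 70.1% of all KCl and 61.4% of all untreated regions of Rpc155. At Arc this held for 2 of 3, the exception being the region beside the Arc start.

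**Figure D3:**
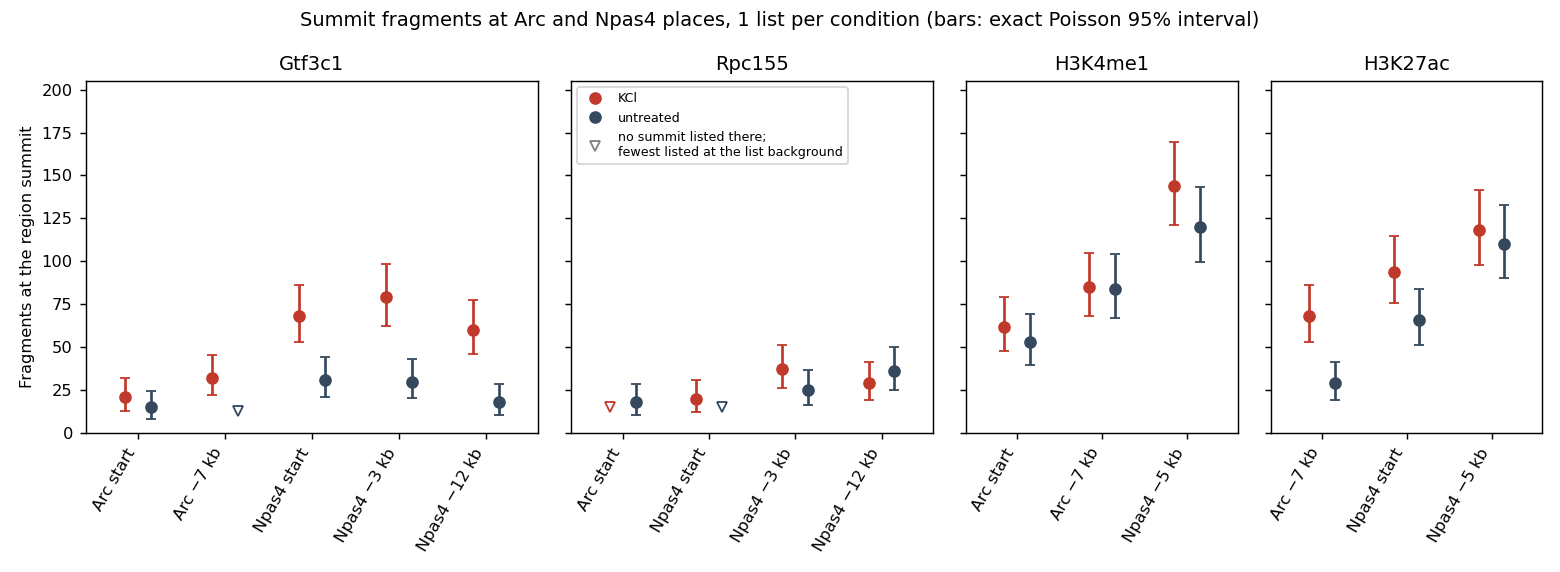
Fragments at the region summit at places of Arc and Npas4 (minus values on the horizontal axis are upstream), with KCl in red left of untreated in dark blue. Each condition is shown at its own summit, so positions can differ. The summits are 1029 bp apart for H3K4me1 at the Arc start and 595 bp apart for Gtf3c1 at the Npas4 start. Bars are exact Poisson 95% intervals, and open triangles mark a place with no listed summit at the fewest fragments listed at that list's background. Gtf3c1 at the 3 Npas4 places has 60 to 79 fragments with KCl and 18 to 31 without, whereas Rpc155 and H3K4me1 intervals overlap wherever both conditions have a summit.

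Set side by side, the genes differed in where each signal was higher with KCl. The share of genes with a ratio as high was 0.831% for H3K27ac at Arc and 1.00% for Gtf3c1 at Npas4. The ratio for Npas4 set the KCl region with its summit 3.09 kb upstream against the untreated region at the start. Taken within 1 kb of the start it was 1.01 on the log2 scale. The value for Arc rested on the summit 6.99 kb upstream. Its log2 ratio was 0.035 with summits required within 5 kb. Within 50 kb it was 0.14, but the strongest regions there lie at the boundary of Jrk and 4933427E11Rik (10.8 with KCl, 9.78 without). The median of 0.45 over all genes counts any overlap within 5 kb and was not computed for either of these settings. The strongest Gtf3c1 value within 5 kb was 3.95 at Arc and 14.4 at Npas4 with KCl, and 43.4% and 2.45% of protein-coding genes were as high. The windows are unlike for every antibody. That of Npas4 is set from its RefSeq span, which reaches 13468 bp above the start, and so takes in its upstream places. The window of Arc leaves out the Gtf3c1 region 6.70 kb upstream, which had a fold enrichment of 5.92 with KCl. For Rpc155 the KCl list had no region within 5 kb of Arc and a value of 6.90 at Npas4, which 1.53% of genes reached. The strongest H3K27ac value was 9.32 at Arc and 16.1 at Npas4 with KCl, which 30.3% and 1.59% of genes reached. In untreated neurons it was 3.43 and 14.1, which 56.8% and 0.219% reached. With 1 list per condition the difference between the genes was not tested.

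The same measures were taken over 18 other immediate-early genes (Fos, Fosb, Junb, Egr1 to Egr4, Nr4a1 to Nr4a3, Btg2, Ier2, Dusp1, Sik1, Gadd45b, Per1, Homer1 and Bdnf). All 18 had Gtf3c1 within 5 kb in both conditions, as did 11853 of the 21887 protein-coding genes. All 18 were higher with KCl, and the share of all genes with any higher value is not given here. At least 2-fold higher were 10 of the 18, against 2.96% of all genes with a region in both lists. Their median log2 ratio was 1.05, against 0.06 over all genes. Npas4, at 1.32, was exceeded by 4 of the 18 and equalled by Nr4a1 within 0.005. Within 1 kb of its start Npas4 was at 1.01, a setting not computed for the 18 genes. The highest ratios were those of the kinase gene Sik1 (2.44), the zinc finger gene Egr1 (1.96) and the antiproliferative gene Btg2 (1.65). Arc, at 0.46, was exceeded by 14, and its KCl fold enrichment of 3.95 lay below the range of the 18 genes, 5.92 to 25.3. The 5 kb window leaves out the Gtf3c1 region 6.70 kb upstream of Arc. That region, in the KCl list alone, had a fold enrichment of 5.92, at the low end of this range. Gtf3c1 covered on average 75.4% of their length with KCl and 18.1% without. Coverage was higher by at least 10 points in 17 of the 18 and in Npas4, against 4.08% of all protein-coding genes. At Arc the difference was 4.99 points as deposited and 11.4 points at a q of at most 1e-05. Of the 18 only Bdnf, at 9.09%, was covered less than Arc with KCl.

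For H3K27ac the median log2 ratio of the 17 immediate-early genes with a region in both lists was 0.64, against 0.45 over all genes, and 4 of the 17 were at least 2-fold higher, against 7.48% of all genes. Arc, at 1.44, was exceeded by Junb (1.79) and Fosb (1.47), which encode AP-1 subunits, while Npas4, at 0.19, was exceeded by 14 of the 17. With summits required within 5 kb Arc, at 0.035, was below Npas4, which stayed at 0.19. Rpc155 was within 5 kb of 15 of the 18 with KCl and of 10 without, 6 in the KCl list alone and 1 in the untreated list alone. Of the 21887 protein-coding genes, 2418 had Rpc155 within 5 kb in both lists and 771 (3.52%) in the KCl list alone. A further 4937 (22.6%), Arc among them, had it in the untreated list alone, so over all genes it was listed more often without KCl. H3K4me1 had a median log2 ratio of 0.24, near the 0.21 of Arc and the 0.25 of Npas4, and none of the 18 differed by 2-fold (0.531% of genes were 2-fold higher and 0.197% lower).

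**Figure D4:**
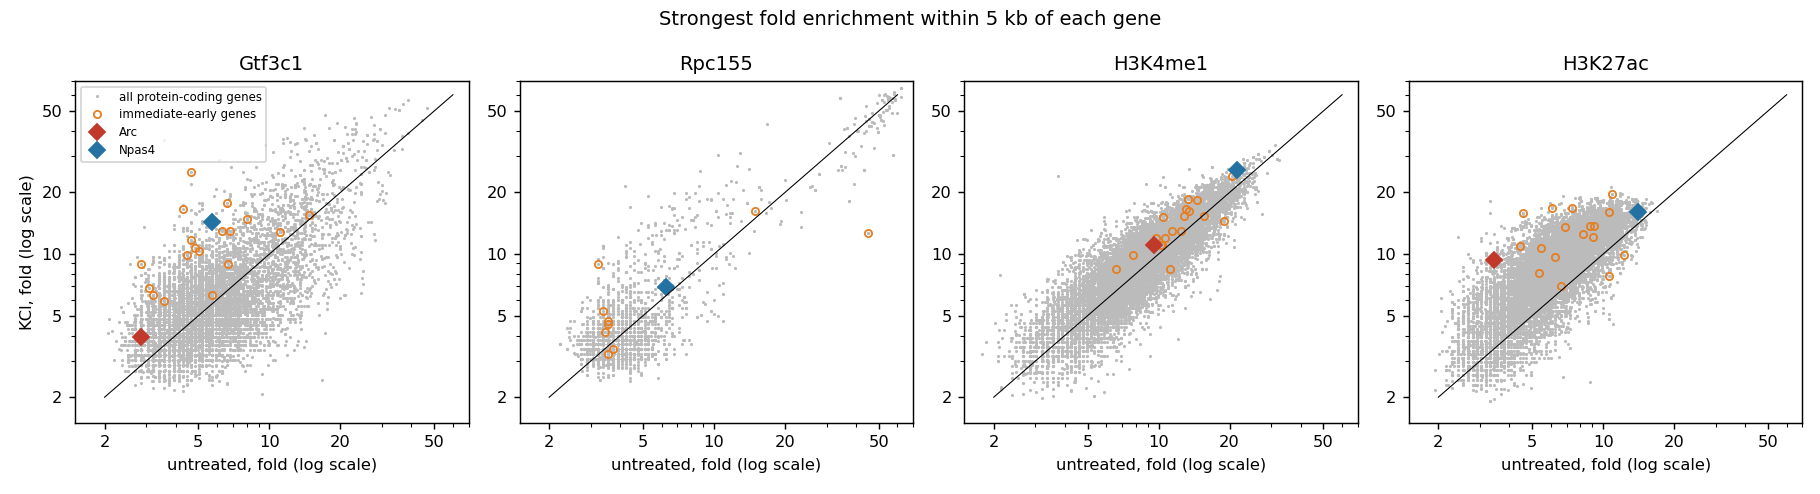
Strongest fold enrichment within 5 kb of every protein-coding gene with a region in both lists, KCl on the vertical and untreated on the horizontal axis (both log scales), with equality as a line. Npas4 sits above the line for Gtf3c1 (14.4 with KCl, 3.09 kb upstream, and 5.73 without, at the start). Arc does so for H3K27ac (9.32, with its summit outside the 5 kb, and 3.43). Arc has no point for Rpc155, which had no KCl region within 5 kb.

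Genes that act before, with or after the ARC and NPAS4 proteins had smaller median Gtf3c1 ratios than the immediate-early genes. Of all genes with Gtf3c1 in both lists, 2.96% were at least 2-fold higher with KCl. Of 12 regulators of both genes, 11 had Gtf3c1 in both lists, with a median log2 ratio of 0.18 and 1 gene 2-fold higher, Creb1 (1.00), which encodes CREB. Srf (0.81), which encodes serum response factor, and Mapk3 (0.71), which encodes the kinase ERK1, came next. Of 13 genes for binding partners of the proteins, all had Gtf3c1 in both lists with a median of 0.32, and 2 were 2-fold higher. These were Rnf216 (1.23), whose product is a ubiquitin ligase that acts on ARC, and Cacng2 (1.05), which encodes the AMPA receptor protein stargazin. Arnt (0.67), for a dimer partner of NPAS4, came next. Of 6 targets of NPAS4, among them Homer1 and Bdnf of the immediate-early genes, 5 had it in both lists with a median of 0.24, and Homer1 (1.04), for a postsynaptic scaffold protein, was the 1 gene that was 2-fold higher. H3K27ac medians of these 3 lists were 0.59, 0.44 and 0.62, beside the 0.45 of all genes. Their Rpc155 regions were in the KCl list alone at 1 gene of each list and in the untreated list alone at 4, 5 and 2 genes. Over all protein-coding genes these shares were 3.52% and 22.6%.

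**Figure D5:**
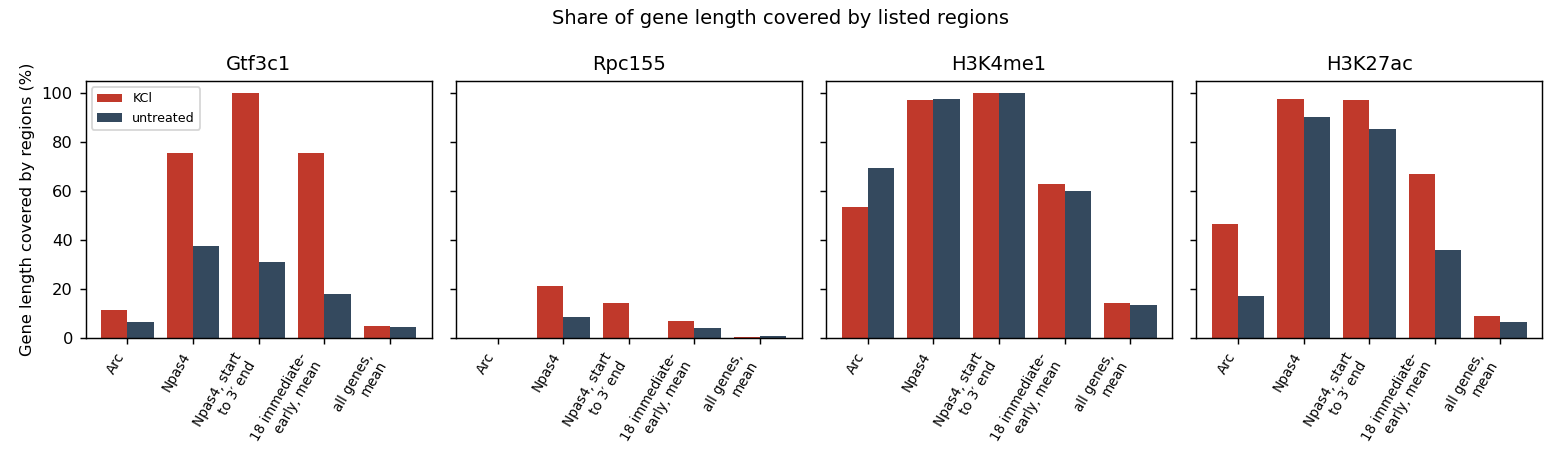
Share of gene length covered by listed regions (%), KCl in red left of untreated in dark blue, for Arc, for Npas4 by its RefSeq span and from its start to the 3′ end, and as means over the 18 other immediate-early genes and all protein-coding genes. Gtf3c1 covers 100% of Npas4 from start to 3′ end with KCl and 31.1% without, and 11.4% and 6.42% of Arc.

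By the pattern over all 8 lists neither gene was among the 5 most like the other. Likeness was taken as the Euclidean distance over the 8 log2 values of strongest fold enrichment within 5 kb, with no region counted as a fold of 1. The 5 genes nearest to Arc were Akr7a5 (0.44), Stag3 and Gpc2 (0.45 each, genes that have the same values), Grasp (0.53) and Top3a (0.55). All 5 had Rpc155 in the untreated list alone, as Arc did. Grasp, which encodes a scaffold protein also known as tamalin, had H3K27ac at 9.59 with KCl and 4.82 without. The 5 nearest to Npas4 were Dclk1 (0.94), a neuronal kinase gene, Trio (1.03), Myof (1.14), Pde10a (1.16) and Cand2 (1.17). Pde10a, a phosphodiesterase gene of striatal neurons, had Gtf3c1 at 15.4 with KCl and 8.16 without. Arc and Npas4 lay 4.55 apart. That was above the median distance of all genes from Arc, 3.08, and below the median from Npas4, 5.51. These distances are a description over 8 lists that share antibodies and libraries.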

How the data were processed

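The data are 8 deposited peak lists, 1 for each of 4 antibodies with and without KCl. The submitters' processing notes name Bowtie2, MACS2 and GRCm38/mm10. Versions and any pooling of the replicates were not given in the sources used here. The 2 input samples were not analysed here. For each region the authors deposited a fold enrichment (a ratio), a −log10 p, a −log10 q, a score that is 10 times the −log10 q rounded down, and a summit position. Total read counts are not in the lists, so sequencing depth is unknown; the recovered fragments show local precision only.

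Overlaps of at least 1 bp were counted with pandas 2.3.3 and numpy 2.4.6; fragments were recovered from fold and p under the Poisson model with scipy 1.17.1, and the code was tested on simulated data. Genes came from RefSeq (GRCm38.p6). Members, lists and the 2-fold and 10-point thresholds were chosen with earlier results of these data known. Named genes were both members, their neighbours within 50 kb, the 5 most alike, and the 3 listed genes with the highest ratios. Columns of per-sample values left unused numbered 0. Alternatives covered q, overlap by summit, list length, merging, window and scaling.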

Additional observations from a re-analysis of the deposited data

How the results depend on the processing

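Region counts within 50 kb depended on the q limit and on how regions were split. With regions of a list merged when within 1 kb, the KCl and untreated counts at Npas4 were 8 and 10 for Gtf3c1, 7 and 10 for H3K4me1 and 6 and 7 for H3K27ac, and the KCl count of H3K27ac at Arc was 6. Keeping only regions with a q of at most 1e-05, the counts at Npas4 were 11 and 10 for Gtf3c1 and 3 and 3 for Rpc155, and 13 for untreated H3K4me1; at Arc they were 7 for H3K27ac with KCl and 1 for untreated Rpc155, which was also 1 with equal numbers of regions. Taken within 50 kb, the log2 ratio of the strongest fold enrichment turned to −0.31 for Gtf3c1 at Arc, because the regions at Jrk and Them6 then enter. It was 0.26 for Gtf3c1 at Npas4, where the tRNA gene enters. For H3K27ac at Arc it was 0.14, where the regions at the boundary of Jrk and 4933427E11Rik enter. With the summit required inside 5 kb, an alternative chosen after seeing the data, H3K27ac at Arc was 0.035. The difference in gene length covered (KCl minus untreated, percentage points) moved with the limits used. With 1 kb flanks added it was −0.0729 for Gtf3c1, −6.67 for Rpc155, −10.5 for H3K4me1 and 26.2 for H3K27ac at Arc, and 39.2, 11.4, −0.37 and 6.62 at Npas4. At a q of 1e-05 or lower it was 11.4 for Gtf3c1 and −36.2 for H3K4me1 at Arc, and 47.2 for Gtf3c1, 5.40 for Rpc155 and 0.78 for H3K4me1 at Npas4. With equal numbers of regions it was 41.0 for Gtf3c1 and 16.3 for Rpc155 at Npas4. With Npas4 ended at the promoter table's start, also chosen after seeing the data, it was 68.9 for Gtf3c1, 14.1 for Rpc155, 0 for H3K4me1 and 11.6 for H3K27ac. Of the other alternative values, 49 counts were within 1.5 times the count as deposited, 36 ratios kept their sign and lay within counting error of it, and 9 covered shares did not move. No ratio exists for Rpc155 at Arc. No paired analysis was possible because each antibody and condition has 1 list, and for the same reason no replicate could be left out.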

Other observations

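A tRNA gene inside the Npas4 window gave values for the TFIIIC subunit Gtf3c1 and the polymerase III subunit Rpc155 at one of their standard targets. At n-TSgct6 (chromosome 19, 5038304 to 5038385), a serine tRNA gene that lies 48.3 kb upstream of Npas4 and inside the noncoding gene Gm30581, Rpc155 had a fold enrichment of 45.6 with KCl and 45.3 in untreated neurons, from 250 fragments (220 to 283) and 266 fragments (235 to 300). Gtf3c1 had 13.3 and 12 there, from 73 and 66 fragments, and the intervals overlap for both antibodies. About 3 kb upstream of Npas4, Gtf3c1 was 14.4 with KCl, with a fragment interval that overlaps that of the tRNA gene, and 5.55 in untreated neurons, with an interval below it, while Rpc155 at the upstream place was at 6.90 with KCl and 4.08 without.

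The housekeeping neighbours of Npas4 were acetylated in both conditions. At Mrpl11, a mitochondrial ribosomal protein gene, H3K27ac had a fold enrichment of 11.2 with KCl and 6.60 without, and a Rpc155 region (3.47, 22 fragments) was in the KCl list alone. At Slc29a2, which encodes a nucleoside transporter, H3K27ac had 11.3 and 7.49, and a Rpc155 region (3.91, 22 fragments) was in the untreated list alone. Gtf3c1 at these genes was 6.00 and 5.01 at Mrpl11 and 5.38 and 6.80 at Slc29a2. Their Gtf3c1 summits held 39 and 27 fragments at Mrpl11 and 29 and 37 at Slc29a2, with KCl and without in that order.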
